A study of Mus musculus with 6 samples.

Results

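Amino acid transporters of the solute carrier families SLC1, SLC3, SLC6, SLC7, SLC36, SLC38 and SLC43 were followed across 3 myeloid cell populations grown from mouse bone marrow. Members were the genes whose annotated symbol begins with Slc1a, Slc3a, Slc6a, Slc7a, Slc36a, Slc38a or Slc43a, with Slc7a1 and Slc7a2 left out. The rule found 62 of the 19938 genes tested. Of these, 60 are carriers or carrier subunits and 2, Slc7a6os and Slc6a19os, are opposite-strand neighbours that only share the prefix. All marrow came from C57BL/6J mice labelled male, 6 to 10 weeks old, and was cultured for 7 days. GM-BMDC, labelled dendritic cells, grew in 25 ng/ml GM-CSF and were sorted as MHCIIhighF4/80low. GM-BMM, labelled macrophages, came from the same GM-CSF condition and were sorted as MHCIIlowF4/80high. M-BMM, also labelled macrophages, grew in 20% medium conditioned by L cells, a crude supernatant that supplies M-CSF, and were sorted on CD11b and F4/80. Each population had 2 arrays, called biological replicates in the labels, which do not say how many animals or cultures stand behind them. The p-values therefore measure the spread between these arrays, which may be technical. In the GM-CSF populations this spread also holds a difference in Y-linked signal, given below.

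Cells take up amino acids through carriers that differ in substrate and in the ion that drives them. The heavy chain encoded by Slc3a2 (CD98, 4F2hc) brings several SLC7 light chains to the surface, where they exchange one amino acid for another. SLC1 and SLC38 proteins use the sodium gradient to load cells with glutamate, alanine, serine, glutamine and the like. Some SLC36 and some SLC38 proteins let amino acids out of lysosomes. Many SLC6 carriers clear neurotransmitters in brain, whereas others import betaine, taurine or creatine. In macrophages and dendritic cells these carriers feed protein synthesis, glutathione and the mTORC1 growth signal.

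Sequences at or upstream of a start of 6 members are shown. Values of these genes are given below, or the sequences hold letters linked to amino acid shortage or to lysosomal genes. The sequences are from RefSeq on mouse build GRCm38.p6, 5′ to 3′ on the gene's strand, with matches to a motif in capitals. The first stretch, chr6:121342434-121342513 (+), lies upstream of one annotated start of the betaine carrier gene Slc6a12. Its capitals mark GGAAA, any 4 bases and C, a loose form of the tonicity-responsive element.
Slc6a12: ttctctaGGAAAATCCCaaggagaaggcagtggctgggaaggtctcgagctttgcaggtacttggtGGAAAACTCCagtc
The next 3 are of the cystine carrier gene Slc7a11 (chr3:50443614-50443733, -), the neutral exchanger gene Slc1a4 (chr11:20332710-20332789, -) and the light chain gene Slc7a7 (chr14:54417938-54418044, -). Their capitals mark TGATGNAA, the core of the amino acid response element bound by ATF4 with C/EBP partners.
Slc7a11: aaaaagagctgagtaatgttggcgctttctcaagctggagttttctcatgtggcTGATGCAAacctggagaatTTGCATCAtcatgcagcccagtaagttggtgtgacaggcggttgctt
Slc1a4: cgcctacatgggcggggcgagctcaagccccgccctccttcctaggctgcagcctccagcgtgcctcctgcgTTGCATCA
Slc7a7: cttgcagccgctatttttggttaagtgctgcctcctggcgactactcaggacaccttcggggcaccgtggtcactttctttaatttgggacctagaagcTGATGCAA
The last 2 are of Slc38a7 (chr8:95853492-95853571, -) and Slc36a1 (chr11:55204264-55204343, +), whose proteins sit in lysosomes. Their capitals mark the E-box CACGTG, the core of the site read by TFEB and its relatives.
Slc38a7: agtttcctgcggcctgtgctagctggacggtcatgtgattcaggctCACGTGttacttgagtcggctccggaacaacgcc
Slc36a1: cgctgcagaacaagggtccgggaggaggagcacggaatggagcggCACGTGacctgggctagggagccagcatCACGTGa

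RefSeq windows of 250 bases before to 50 after a start were at hand for 46 of the 62 members, 66 windows in all, and both strands were searched. TGATGNAA occurred in windows of 4 members (Slc7a11, Slc1a4, Slc7a7 and Slc6a21), or 7.58% of the members' windows, against 3.97% of all 32851 windows. Slc7a11 held it in both orientations, with first bases at -66 and -47 from the start. The marked matches of Slc1a4 and Slc7a7 began at -4 and -1, so they cross the start. CACGTG occurred in windows of 9 members (13.6% of windows against 7.15% of all), at -34 in Slc38a7 and at -31 and -3 in Slc36a1. The antioxidant response core TGACNNNGC was found for 8 members (15.2% against 12.4%), among them Slc38a2 and Slc7a6. The STAT site TTCNNNGAA was found for 3 members (4.55% against 8.30%), with Slc7a11 holding one at -183. The tonicity letters were found for 9 members (15.2% against 18.7%), and 1 of the 5 windows of Slc6a12 held it, at -133 and -74. TTCNNNGAA and TGATGNAA do not overlap in the Slc7a11 window. These matches describe letters in the windows and show no binding.

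The genes behind the sort gates followed the labels, whereas Xist and the Y-linked genes did not. H2-Ab1 averaged 13.13 in GM-BMDC, 10.68 in the GM-BMM and 6.08 in the M-BMM, Adgre1 (F4/80) 10.15, 12.46 and 12.76, and Itgam (CD11b) 10.21, 11.79 and 11.85, as log2 signals. Xist was high in both GM-BMDC arrays and in GM-BMM replicate 1 (10.68 to 11.66) and low in the other 3 arrays (4.53 to 4.93). Eif2s3y was low in replicate 1 of GM-BMDC and of GM-BMM (3.94 and 3.66) and high elsewhere (8.80 to 9.32), although all arrays are labelled male. The summed linear signal of 15 dendritic cell markers was 22375 to 27302 in GM-BMDC, 4101 to 4639 in GM-BMM and 2816 to 2838 in M-BMM. That of 14 macrophage markers, among them Csf1r and Mertk, was 21614 to 35240, 45175 to 50592 and 54107 to 54586, and that of 14 neutrophil markers was 2590 to 3406, 13038 to 14518 and 7385 to 7640. Of the neutrophil markers, Cxcr2 and Retnlg were low in every population and Ly6g was low in GM-BMDC and M-BMM but not in GM-BMM. Of the 14, 0 were called higher and 3 lower (Mmp9, Csf3r and Lcn2) in GM-BMDC relative to GM-BMM. In these bulk samples fewer cells of a type and less RNA per cell cannot be told apart, and the part of other cell types in the results below was not tested.

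Of the 62 members, 22 passed the test in at least 1 comparison, or 35.5%, beside 20.7% of all genes. A gene is called here when its limma p, adjusted by Benjamini-Hochberg over all 19938 genes, is under 0.05. Between GM-BMDC and GM-BMM, 5 members were higher and 11 lower in GM-BMDC, 16 in all (25.8%), where 10.4% of all genes were called, 4.69% higher and 5.74% lower. Between GM-BMM and M-BMM, 6 members were higher and 3 lower in GM-BMM (14.5%), where 6.19% of all genes were called, 3.62% higher and 2.57% lower. Between GM-BMDC and M-BMM, 8 members were higher and 7 lower in GM-BMDC (24.2%), where 16.7% of all genes were called, 7.76% higher and 8.9% lower. The median member differed by -0.06, -0.00 and -0.01 on the log2 scale, beside 0.02, -0.02 and -0.00 over all genes. Among the 302 other solute carrier genes, 15.9%, 10.3% and 22.8% were called in the same order of comparisons.

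Most of the calls came from members with a signal in the upper part of the array. Of the 26 members above the median gene (mean signal 6.41), 57.7%, 34.6% and 53.8% were called, beside 17.4%, 10.7% and 27.8% of all genes above that median. Of the 36 below it, only Slc6a15 was called. A mean signal under 5.04, the 25th percentile of the table, is called low, and 8 members (12.9%, against 18.5% of all genes) were low in all 3 populations. Without both GM-CSF replicates numbered 1, which had low Y-linked signals, the calls were 12, 11 and 14, of which 10, 9 and 12 were among those above. Leaving out GM-BMDC replicate 1 or GM-BMM replicate 2 gave fewer member calls between GM-BMDC and GM-BMM, and fewer calls over all genes as well. With a Y-linked covariate in the fit, 4 members were higher and 11 lower, 6 and 0, and 6 and 4. That fit called 11.2%, 4.51% and 10.6% of all genes. The 3 lower calls in GM-BMM relative to M-BMM were all lost. Their differences were -0.61 for Slc38a7, -1.02 for Slc7a5 and -0.98 for Slc7a7, against -0.61, -1.10 and -1.09 in the full fit. Both M-BMM arrays have high Y-linked signals, so the covariate partly follows the populations. Leaving out an M-BMM array gave fewer member calls in both comparisons with M-BMM, and fewer calls over all genes as well. Fits without an array or with the covariate have fewer residual degrees of freedom, and the part of this in the losses was not tested.

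**Figure D1:**
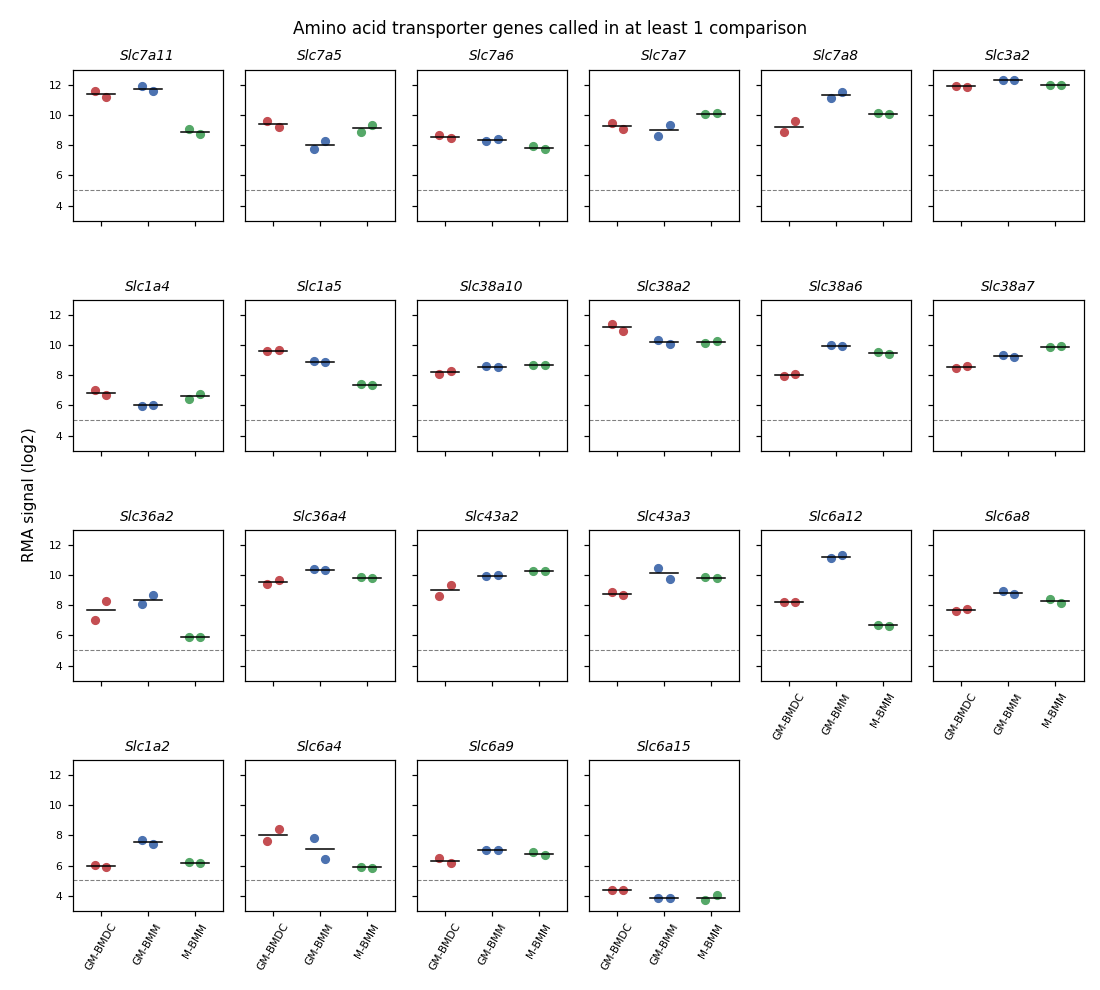
RMA log2 signal of the 22 called members in every array, with GM-BMDC (red), GM-BMM (blue) and M-BMM (green) from left to right. Points are arrays, black bars are means of 2 arrays and the dashed line is the low level of 5.04. Slc6a12 stands highest in GM-BMM, Slc7a11 and Slc1a5 are high in both GM-CSF populations, and Slc38a6 is lowest in GM-BMDC.

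Among the light chains, the cystine-glutamate exchanger was higher in both GM-CSF populations than in M-BMM. Slc7a11, which encodes the xCT subunit that imports cystine for glutathione, measured 11.61 and 11.20 in GM-BMDC and 11.93 and 11.57 in GM-BMM, against 9.04 and 8.71 in M-BMM. Both GM-CSF populations lay above M-BMM with no overlap. It was 7.31-fold higher in GM-BMM than in M-BMM (log2 difference 2.87 ± 0.20, SE, limma adjusted p = 0.00028) and 5.76-fold higher in GM-BMDC than in M-BMM (2.53 ± 0.20, adjusted p = 0.000266). Between GM-BMDC and GM-BMM the difference was -0.34 ± 0.20 (adjusted p = 0.369), with overlapping arrays. Both calls held under all 17 alternative fits.

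A pair of large neutral amino acid exchangers ran in opposite directions in GM-BMM. Slc7a5 (LAT1), which brings in leucine and other large neutral amino acids, measured 9.57 and 9.17 in GM-BMDC, 7.73 and 8.30 in GM-BMM, and 8.89 and 9.32 in M-BMM. Slc7a8 (LAT2), with a broader neutral range, measured 8.85 and 9.57 in GM-BMDC, 11.11 and 11.51 in GM-BMM, and 10.13 and 10.06 in M-BMM. GM-BMM thus had the lowest Slc7a5 and the highest Slc7a8, each without overlap with another population. In GM-BMDC against GM-BMM, Slc7a5 was 2.56-fold higher (1.36 ± 0.24, limma adjusted p = 0.0124) and Slc7a8 4.29-fold lower (-2.10 ± 0.24, adjusted p = 0.00205). Between GM-BMM and M-BMM, in GM-BMM Slc7a5 was 2.14-fold lower (-1.10 ± 0.24, limma adjusted p = 0.0392) and Slc7a8 2.33-fold higher (1.22 ± 0.24, adjusted p = 0.0271). GM-BMDC against M-BMM gave 0.26 ± 0.24 for Slc7a5 (adjusted p = 0.561) and a 1.84-fold lower Slc7a8 (-0.88 ± 0.24, adjusted p = 0.0445). GM-BMDC replicate 2, which had more Adgre1 signal than replicate 1 (10.91 against 9.39), also had more Slc7a8, and the part of macrophages in it was not tested.

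Several of these light chain calls were lost when 1 array was left out, in fits with fewer residual degrees of freedom. The Slc7a8 difference between GM-BMM and M-BMM was 1.26 and 1.18 without M-BMM replicate 1 or 2, and 1.22 in the full fit. Slc7a5 was not called without GM-BMDC replicate 1 in GM-BMDC against GM-BMM (limma adjusted p = 0.0738). Between GM-BMM and M-BMM it was not called without GM-BMM replicate 1 (0.151) or either M-BMM array (0.119 and 0.269). Slc7a8 lost its call against M-BMM in GM-BMM without GM-BMM replicate 2 (limma adjusted p = 0.0984) or M-BMM replicate 1 or 2 (0.172 and 0.203). In GM-BMDC it lost it without GM-BMDC replicate 1 (log2 difference -0.52, adjusted p = 0.164) or M-BMM replicate 1 or 2 (0.225 and 0.169). With the Y-linked covariate, Slc7a5 between GM-BMM and M-BMM (0.124) and Slc7a8 between GM-BMDC and M-BMM (0.0915) were not called, nor was Slc7a5 between GM-BMDC and GM-BMM without both GM-CSF arrays numbered 1 (0.0522).

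The remaining light chains and the heavy chain moved less. Slc7a7, the y+LAT1 subunit that exports cationic amino acids, measured 9.46 and 9.05 in GM-BMDC, 8.63 and 9.32 in GM-BMM, and 10.05 and 10.10 in M-BMM. M-BMM stood above the other 4 arrays, and GM-BMM was 2.13-fold lower than M-BMM (-1.09 ± 0.23, limma adjusted p = 0.0371), while GM-BMDC against M-BMM gave -0.82 ± 0.23 (adjusted p = 0.0532). Its relative Slc7a6 measured 8.68 and 8.45 in GM-BMDC and 8.29 and 8.41 in GM-BMM, against 7.91 and 7.76 in M-BMM. Slc7a6 was 1.66-fold higher in GM-BMDC than in M-BMM (0.73 ± 0.13, limma adjusted p = 0.00862). Slc3a2 itself measured 11.95 and 11.87 in GM-BMDC, 12.34 and 12.33 in GM-BMM, and 11.97 and 11.98 in M-BMM. It was 1.34-fold lower in GM-BMDC than in GM-BMM (-0.43 ± 0.11, limma adjusted p = 0.0453), a call lost when any of the 6 arrays was left out (0.0966 to 0.141). Slc7a7 lost its call without GM-BMM replicate 1 (adjusted p = 0.102) or M-BMM replicate 1 or 2 (0.214 and 0.234) and with the Y-linked covariate (0.124), and Slc7a6 without M-BMM replicate 2 (0.0782).

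The other 5 light chains (Slc7a9, Slc7a10, Slc7a12, Slc7a13 and Slc7a15) were called in no comparison and lay between 3.42 and 6.14. The second heavy chain gene Slc3a1, the partner of Slc7a9 in kidney, lay between 5.19 and 5.61 and was not called. Slc7a3, Slc7a4 and Slc7a14, relatives of the cationic amino acid carriers, lay between 5.10 and 6.40, with no difference over 0.36. Of these genes 4, all light chains, were low in all 3 populations.

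Of the SLC1 family, the glutamine exchanger gene was graded over the populations. Slc1a5 (ASCT2), which exchanges glutamine, serine and alanine, measured 9.61 and 9.65 in GM-BMDC, 8.91 and 8.89 in GM-BMM, and 7.40 and 7.33 in M-BMM. The order GM-BMDC, GM-BMM, M-BMM had no overlap. GM-BMDC was 1.66-fold above GM-BMM (0.73 ± 0.11, limma adjusted p = 0.0056) and 4.82-fold above M-BMM (2.27 ± 0.11, adjusted p = 2.82e-05), and GM-BMM was 2.90-fold above M-BMM (1.54 ± 0.11, adjusted p = 0.000289). Its 3 calls held under every alternative fit. Slc1a4 (ASCT1), a serine and alanine exchanger, measured 7.01 and 6.66 in GM-BMDC, 5.94 and 6.05 in GM-BMM, and 6.42 and 6.78 in M-BMM. GM-BMM was lowest. Slc1a4 was 1.79-fold higher in GM-BMDC than in GM-BMM (0.84 ± 0.17, limma adjusted p = 0.0203), and not called when GM-BMDC replicate 1 (0.108) or one of the GM-BMM arrays (0.0769 and 0.06) was left out, or both GM-CSF arrays numbered 1 (0.125). The difference of GM-BMM from M-BMM was -0.61 ± 0.17 (adjusted p = 0.0897).

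Among the glutamate carriers of this family, known for clearing transmitter in brain, Slc1a2 was the 1 of 5 that was called. Slc1a2 (GLT-1) measured 6.04 and 5.91 in GM-BMDC, 7.69 and 7.43 in GM-BMM, and 6.22 and 6.14 in M-BMM. Both GM-BMM arrays stood above the other 4. It was 3.0-fold lower in GM-BMDC than in GM-BMM (-1.59 ± 0.13, limma adjusted p = 0.000536) and 2.6-fold higher in GM-BMM than in M-BMM (1.38 ± 0.13, adjusted p = 0.00113), under every alternative fit. GM-BMDC differed from M-BMM by -0.21 ± 0.13 (adjusted p = 0.368). Slc1a1, Slc1a3, Slc1a6 and Slc1a7 lay between 5.01 and 5.99, with no difference over 0.33.

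In the SLC38 family, the system A gene Slc38a2 was higher in GM-BMDC than in both macrophage populations, and Slc38a6 and Slc38a7 were lower. Slc38a2 (SNAT2), a sodium-driven importer of alanine and glutamine that is induced by amino acid shortage, measured 11.42 and 10.96 in GM-BMDC, 10.33 and 10.08 in GM-BMM, and 10.16 and 10.26 in M-BMM. It was 1.98-fold higher in GM-BMDC than in GM-BMM (0.99 ± 0.17, limma adjusted p = 0.0129) and 1.97-fold higher than in M-BMM (0.98 ± 0.17, adjusted p = 0.00863). The 2 macrophage populations overlapped (-0.01 ± 0.17, adjusted p = 0.993). Slc38a6 (SNAT6) measured 7.97 and 8.11 in GM-BMDC, 10.01 and 9.92 in GM-BMM, and 9.52 and 9.43 in M-BMM. GM-BMDC stood apart on the low side, 3.80-fold below GM-BMM (-1.92 ± 0.11, limma adjusted p = 0.000158) and 2.71-fold below M-BMM (-1.44 ± 0.11, adjusted p = 0.000293), under every alternative fit. GM-BMM against M-BMM gave 0.49 ± 0.11 (adjusted p = 0.0536).

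Slc38a7 (SNAT7), which exports glutamine from lysosomes, was lowest in GM-BMDC and highest in M-BMM. It measured 8.48 and 8.60 in GM-BMDC, 9.35 and 9.24 in GM-BMM, and 9.84 and 9.95 in M-BMM. No arrays of different populations overlapped. GM-BMDC was 1.68-fold below GM-BMM (-0.75 ± 0.12, limma adjusted p = 0.0072) and 2.57-fold below M-BMM (-1.36 ± 0.12, adjusted p = 0.000365), and GM-BMM was 1.52-fold below M-BMM (-0.61 ± 0.12, adjusted p = 0.0236). Slc38a10 measured 8.10 and 8.30 in GM-BMDC, 8.59 and 8.52 in GM-BMM, and 8.71 and 8.69 in M-BMM, and was 1.41-fold lower in GM-BMDC than in M-BMM (-0.50 ± 0.12, limma adjusted p = 0.0273).

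Calls of Slc38a2 ended in GM-BMDC against GM-BMM without GM-BMDC replicate 1 (limma adjusted p = 0.051) and also without GM-BMM replicate 2 (0.0642), and against M-BMM without M-BMM replicate 1 or 2 (0.0872 and 0.0617). For Slc38a7 the call between GM-BMM and M-BMM ended without any one of their 4 arrays (0.0616 to 0.188) and with the Y-linked covariate (0.074). In GM-BMDC against GM-BMM it ended without both GM-CSF arrays numbered 1 (0.0518). Slc38a10 was not called without GM-BMDC replicate 1 (0.133) or M-BMM replicate 1 or 2 (0.151 and 0.124), when both GM-CSF arrays numbered 1 were dropped (0.105) or with the Y-linked covariate (0.106).

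The other 7 SLC38 genes were not called. Slc38a1 (SNAT1), another system A carrier, ranged from 9.65 to 10.08, and its largest difference was -0.29 ± 0.13 in GM-BMDC against M-BMM (limma adjusted p = 0.195). Slc38a9, the lysosomal arginine sensor that signals to mTORC1, ranged from 8.83 to 9.34, with -0.04 to 0.14 as its 3 differences. Both of these genes had a second probe set, and neither was called there. Slc38a3, Slc38a4, Slc38a5, Slc38a8 and Slc38a11 had no difference over 0.29, and 2 genes of the family were low in all 3 populations.

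Of the 4 proton-coupled SLC36 carriers, 2 were called. Slc36a2 (PAT2), a glycine and proline carrier, measured 7.02 and 8.31 in GM-BMDC and 8.07 and 8.66 in GM-BMM, against 5.90 and 5.92 in M-BMM. Every GM-CSF array lay above both M-BMM arrays. It was 5.5-fold higher in GM-BMM than in M-BMM (2.46 ± 0.38, limma adjusted p = 0.0106) and 3.38-fold higher in GM-BMDC than in M-BMM (1.76 ± 0.38, adjusted p = 0.0199). GM-BMDC and GM-BMM overlapped (-0.70 ± 0.38, adjusted p = 0.344). Slc36a4 (PAT4) measured 9.38 and 9.70 in GM-BMDC, 10.38 and 10.33 in GM-BMM, and 9.87 and 9.79 in M-BMM. It was 1.76-fold lower in GM-BMDC than in GM-BMM (-0.82 ± 0.14, limma adjusted p = 0.0098), and GM-BMM against M-BMM gave 0.53 ± 0.14 (adjusted p = 0.0701).

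Slc36a1 (PAT1), the lysosomal carrier linked to mTORC1, measured 8.40 and 9.55 in GM-BMDC, 10.29 and 10.09 in GM-BMM, and 9.29 and 9.25 in M-BMM. The GM-BMM arrays were highest, yet its differences were not called: -1.21 ± 0.32 against GM-BMM in GM-BMDC (limma adjusted p = 0.058), with 0.92 ± 0.32 between GM-BMM and M-BMM (adjusted p = 0.169). Slc36a3 lay between 5.42 and 5.79 and was not called. Slc36a2 lost its call without M-BMM replicate 1 or 2, in GM-BMM (limma adjusted p = 0.116 and 0.115) and in GM-BMDC (0.137 and 0.119). Without GM-BMDC replicate 2 its difference from M-BMM was 1.11. Slc36a4 lost its call without both GM-CSF arrays numbered 1 (0.0511). GM-BMDC replicate 2, with the higher Adgre1 signal, had the higher value of Slc36a1, Slc36a2 and Slc36a4. It had the lower value of Slc43a3 and Slc6a9 (8.68 against 8.88 and 6.18 against 6.48), which were called lower in GM-BMDC than in GM-BMM. The GM-BMDC arrays also differ in Y-linked signal, and the part of macrophages in these values was not tested.

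Of the 3 sodium-independent SLC43 members, Slc43a2 and Slc43a3 were lower in GM-BMDC than in both macrophage populations and Slc43a1 was not called. Slc43a2 (LAT4), an exporter of branched-chain amino acids and phenylalanine, measured 8.63 and 9.34 in GM-BMDC, 9.92 and 10.02 in GM-BMM, and 10.26 and 10.30 in M-BMM. It was 1.98-fold lower in GM-BMDC than in GM-BMM (-0.99 ± 0.22, limma adjusted p = 0.0287) and 2.46-fold lower than in M-BMM (-1.30 ± 0.22, adjusted p = 0.00632). Slc43a3, which transports purine bases rather than amino acids, measured 8.88 and 8.68 in GM-BMDC, 10.48 and 9.74 in GM-BMM, and 9.86 and 9.80 in M-BMM. It was 2.52-fold lower in GM-BMDC than in GM-BMM (-1.33 ± 0.23, limma adjusted p = 0.0113) and 2.08-fold lower than in M-BMM (-1.05 ± 0.23, adjusted p = 0.0194). Slc43a1 (LAT3) lay between 5.14 and 5.46 in all arrays, with no difference over 0.03.

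Some SLC43 calls were lost when 1 array was left out, in fits with fewer residual degrees of freedom. Without either M-BMM array, the Slc43a2 difference between GM-BMDC and GM-BMM stayed at -0.99. In GM-BMDC against GM-BMM, Slc43a2 was not called without GM-BMDC replicate 1 (log2 difference -0.63, limma adjusted p = 0.0528), GM-BMM replicate 1 or 2 (0.0716 and 0.113) or either M-BMM array (0.0798). Against M-BMM it was not called without M-BMM replicate 1 or 2 (0.0627 and 0.0643). Slc43a3 held against GM-BMM in every fit, and against M-BMM lost its call without GM-BMDC replicate 1 or 2 (0.0581 and 0.0831) or M-BMM replicate 1 or 2 (0.137 and 0.109).

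Slc6a12 had the largest difference of all members. It encodes BGT1, which imports betaine and GABA and is known from kidney cells under osmotic stress. Its signal was 8.20 and 8.24 in GM-BMDC, 11.12 and 11.33 in GM-BMM, and 6.70 and 6.63 in M-BMM. The populations did not overlap, and GM-BMM stood highest. It was 8.04-fold lower in GM-BMDC than in GM-BMM (-3.01 ± 0.12, limma adjusted p = 4.23e-05). GM-BMM exceeded M-BMM 23.6-fold (4.56 ± 0.12, limma adjusted p = 8.72e-06) while GM-BMDC was 2.93-fold above M-BMM (1.55 ± 0.12, adjusted p = 0.000256). These calls held under every alternative fit. Of the other organic solute carriers, the creatine carrier Slc6a8 measured 7.62 and 7.74 in GM-BMDC, 8.92 and 8.77 in GM-BMM, and 8.41 and 8.18 in M-BMM. Slc6a8 was 2.23-fold lower in GM-BMDC than in GM-BMM (-1.16 ± 0.13, limma adjusted p = 0.00201) and 1.53-fold lower than in M-BMM (-0.61 ± 0.13, adjusted p = 0.0185), the second call being lost without GM-BMDC replicate 1 (0.0947) or M-BMM replicate 1 (0.141), when both GM-CSF arrays numbered 1 were dropped (0.0545) or with the Y-linked covariate (0.0615). The taurine carrier Slc6a6 ranged from 11.30 to 11.68 and was not called, its largest difference being -0.29 ± 0.12 in GM-BMDC against M-BMM (limma adjusted p = 0.151).

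Of the 7 neurotransmitter carriers of SLC6, 2 were called. Slc6a4, the serotonin carrier, measured 7.61 and 8.40 in GM-BMDC and 7.82 and 6.43 in GM-BMM, against 5.92 and 5.85 in M-BMM. All GM-CSF arrays exceeded M-BMM, and those of GM-BMM lay far apart. It was 4.35-fold higher in GM-BMDC than in M-BMM (2.12 ± 0.43, limma adjusted p = 0.0148), but not called without GM-BMDC replicate 2 (0.07) or M-BMM replicate 1 or 2 (0.109 and 0.106) or with the Y-linked covariate (0.0648). Mast cells also express this gene. Of 11 mast cell and basophil markers 6 were low in GM-BMDC, including Cpa3, Fcer1a and Ms4a2. The macrophage populations had similar counts, 6 low for GM-BMM and 7 for M-BMM. Cpa3 was above the low level only in GM-BMM, and Tpsab1 only in GM-BMDC. Relative to M-BMM, 2 of the markers were called higher in GM-BMDC and 0 lower, and Kit was 3.73-fold higher. The part of mast cells in the Slc6a4 signal was not tested. Slc6a9 (GlyT1), a glycine importer, measured 6.48 and 6.18 in GM-BMDC, 7.02 and 7.00 in GM-BMM, and 6.89 and 6.70 in M-BMM, and was 1.60-fold lower in GM-BMDC than in GM-BMM (-0.68 ± 0.14, limma adjusted p = 0.0225). That call ended without GM-BMDC replicate 2 (0.0787), GM-BMM replicate 1 or 2 (0.075 and 0.0797) or either M-BMM array (0.0527). Slc6a2, Slc6a3, Slc6a5, Slc6a11 and Slc6a13 lay between 5.24 and 6.31 and were not called.

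Of the 10 remaining SLC6 members, Slc6a15, a carrier of neutral amino acids in neurons, passed the test at a low signal. It measured 4.39 and 4.38 in GM-BMDC, 3.86 and 3.84 in GM-BMM, and 3.72 and 4.03 in M-BMM, with all 3 means under the low level. The differences were 0.53 ± 0.13 in GM-BMDC against GM-BMM (limma adjusted p = 0.0444) and 0.51 ± 0.13 against M-BMM (adjusted p = 0.0377). Signals at this level are not shown to lie above background. The first call was lost when any of the 6 arrays was left out (0.0525 to 0.164), and the second without any array but M-BMM replicate 2 (0.051 to 0.216). The other 9, among them the epithelial carriers Slc6a14, Slc6a18, Slc6a19, Slc6a20a and Slc6a20b and the proline carrier Slc6a7, had no difference over 0.54. Slc6a20a came nearest, with -0.54 ± 0.16 in GM-BMDC against GM-BMM (limma adjusted p = 0.0874). The opposite-strand genes Slc7a6os and Slc6a19os were not called, with no difference over 0.23.

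**Figure D2:**
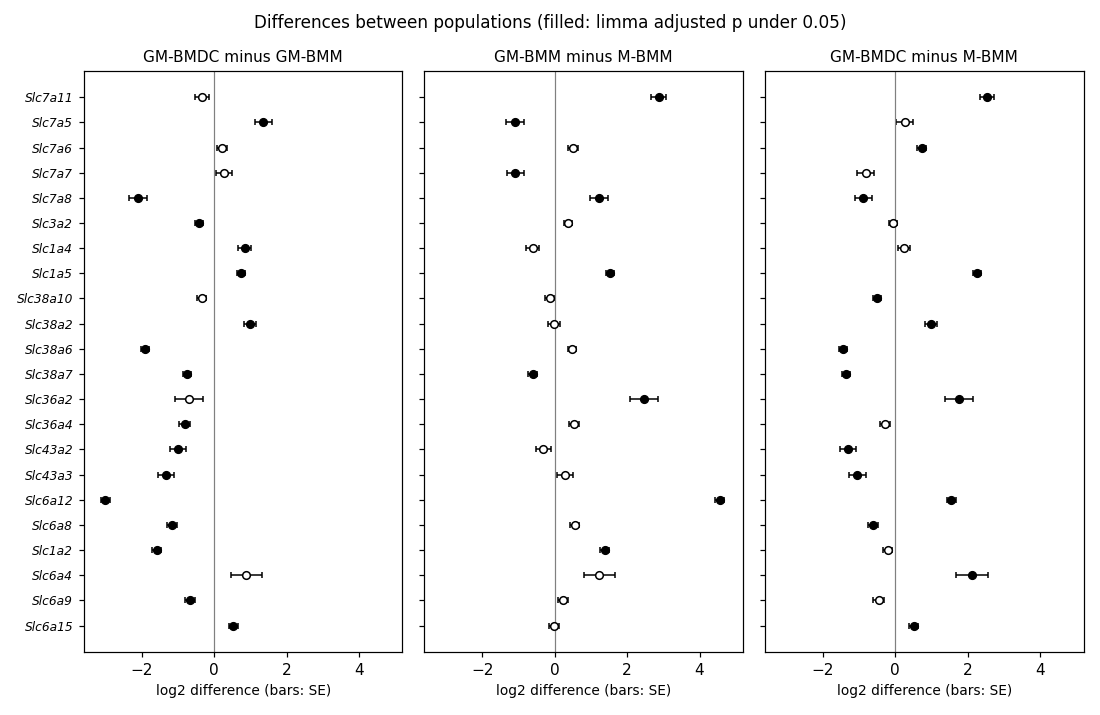
log2 differences of the 22 called members in the 3 comparisons, with standard errors from limma as bars and filled points for calls. Slc6a12 reaches -3.01, 4.56 and 1.55 from left to right, and Slc1a5 is called higher in all 3 panels.

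Some members that adjoin in the genome differed in their calls and others were all uncalled. By RefSeq order, Slc6a12 and Slc6a13 lie next to each other on chromosome 6 with 0 protein-coding genes between them. Slc6a13, a GABA and taurine carrier, measured 5.69 and 5.70 in GM-BMDC, 5.88 and 6.25 in GM-BMM, and 5.80 and 5.91 in M-BMM, and was called in none. Slc36a3, Slc36a2 and Slc36a1 adjoin on chromosome 11, and 1 of the 3 was called. Slc38a1, Slc38a2 and Slc38a4 adjoin on chromosome 15, and Slc38a2 alone was called. The adjoining pairs Slc6a18 and Slc6a19, Slc6a16 and Slc6a21, Slc6a20b and Slc6a20a, and Slc7a6os beside Slc7a6 had no call, apart from that of Slc7a6.

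Carriers of amino acids or peptides from other families included an aromatic carrier gene lower in GM-BMDC and a serine carrier gene lower in M-BMM. Of 21 measured, 2 were higher and 3 lower in GM-BMDC relative to GM-BMM, 1 was higher and 0 lower in GM-BMM relative to M-BMM, and 3 were higher and 4 lower in GM-BMDC relative to M-BMM. These shares were 23.8%, 4.76% and 33.3%, beside 10.4%, 6.19% and 16.7% of all genes, so the middle one lay below the background. Leaving out 1 array gave 1 to 2 higher and 0 to 3 lower, 1 higher and 0 lower, and 1 to 4 higher and 1 to 4 lower in these comparisons. Slc16a10 (TAT1), the facilitator of aromatic amino acids, measured 6.42 and 7.27 in GM-BMDC, 8.21 and 9.08 in GM-BMM, and 9.44 and 9.33 in M-BMM. It was 3.47-fold lower in GM-BMDC than in GM-BMM (-1.79 ± 0.34, limma adjusted p = 0.0159, between 0.0552 and 0.0739 without GM-BMDC replicate 1, GM-BMM replicate 2 or either M-BMM array). Against M-BMM it was 5.80-fold lower (-2.54 ± 0.34, limma adjusted p = 0.00232). Sfxn3, a mitochondrial serine carrier of the sideroflexin family, measured 9.62 and 9.87 in GM-BMDC and 9.73 and 9.67 in GM-BMM, against 8.57 and 8.38 in M-BMM. It was 2.34-fold higher in GM-BMM (1.23 ± 0.13, limma adjusted p = 0.00226) and 2.41-fold higher in GM-BMDC (1.27 ± 0.13, adjusted p = 0.000872) than in M-BMM.

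Outside the 7 carrier families, more genes of the ATF4 amino acid response were called lower than higher in GM-BMDC. Slc38a2, a carrier gene induced by amino acid shortage, was called higher in GM-BMDC than in GM-BMM and M-BMM (0.99 and 0.98). Of the 4 members with TGATGNAA, Slc7a11 was called higher in GM-BMDC than in M-BMM (2.53) and Slc1a4 than in GM-BMM (0.84). Slc7a7 and Slc6a21 were not called in GM-BMDC against either population. Of 31 response genes outside the 7 carrier families, 2 were higher and 8 lower in GM-BMDC relative to GM-BMM, 0 and 6 in GM-BMM relative to M-BMM, and 0 and 14 in GM-BMDC relative to M-BMM. These shares were 32.3%, 19.4% and 45.2%, beside 10.4%, 6.19% and 16.7% of all genes, and the median differences were -0.24, -0.27 and -0.32. Asns, asparagine synthetase, measured 8.76 and 8.34 in GM-BMDC, 9.65 and 9.80 in GM-BMM, and 10.70 and 11.01 in M-BMM. It was 4.95-fold lower in GM-BMDC than in M-BMM (-2.31 ± 0.18, limma adjusted p = 0.000256) and 2.26-fold lower than in GM-BMM (-1.17 ± 0.18, adjusted p = 0.00675). Nupr1, a stress-induced nuclear protein gene, was 2.27-fold and 2.80-fold lower in GM-BMDC than in GM-BMM and M-BMM (-1.18 ± 0.11 and -1.48 ± 0.11, limma adjusted p = 0.00101 and 0.000256). Ddit3 (CHOP), a stress transcription factor, was 2.54-fold lower in GM-BMDC than in M-BMM (-1.34 ± 0.12, limma adjusted p = 0.000475). Without both GM-CSF arrays numbered 1, the counts lower were 5, 6 and 11. Leaving out 1 array gave 4 to 6, 0 to 6 and 6 to 14.

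Targets of NRF2, the regulator of antioxidant genes, were lower in GM-BMDC than in GM-BMM where they were called. Of 25 NRF2 target genes, 0 were higher and 7 lower in GM-BMDC relative to GM-BMM, 4 and 0 in GM-BMM relative to M-BMM, and 2 and 4 in GM-BMDC relative to M-BMM, and without both GM-CSF arrays numbered 1 the same counts were 0 and 6, 6 and 0, and 4 and 4. Shares of 28.0%, 16.0% and 24.0% were called, beside 10.4%, 6.19% and 16.7% of all genes. The median differences were -0.41, 0.38 and -0.15. Leaving out 1 array gave 4 to 12 lower, 0 to 6 higher, and 1 to 3 higher with 3 to 7 lower. Hmox1, heme oxygenase, measured 10.29 and 10.42 in GM-BMDC, 11.97 and 11.99 in GM-BMM, and 11.32 and 11.14 in M-BMM. It was 3.08-fold lower in GM-BMDC than in GM-BMM (-1.62 ± 0.12, limma adjusted p = 0.000391). Gsr, glutathione reductase, measured 9.08 and 9.23 in GM-BMDC, 10.72 and 10.50 in GM-BMM, and 10.30 and 10.16 in M-BMM, and was 2.75-fold below GM-BMM (-1.46 ± 0.13, limma adjusted p = 0.000721) and 2.10-fold below M-BMM (-1.07 ± 0.13, adjusted p = 0.00156) in GM-BMDC. Gsta3, a glutathione transferase, was 4.46-fold lower in GM-BMDC than in GM-BMM (-2.16 ± 0.12, limma adjusted p = 0.000141). Other targets were called higher than in M-BMM. Nqo1 was 2.54-fold higher in GM-BMM (1.35 ± 0.23, limma adjusted p = 0.0162) and 1.91-fold higher in GM-BMDC (0.94 ± 0.23, adjusted p = 0.0323). In GM-BMM, Gstm1 and Pgd were 2.48-fold and 2.05-fold higher (1.31 ± 0.19 and 1.04 ± 0.17, limma adjusted p = 0.00831 and 0.0127). Each of these calls was lost when either M-BMM array was left out, and some also without another array. Of 18 genes of cysteine, methionine and glutathione metabolism, 0 were higher and 3 lower in GM-BMDC relative to GM-BMM, 1 and 2 in GM-BMM relative to M-BMM, and 2 and 5 in GM-BMDC relative to M-BMM. Shares of 16.7%, 16.7% and 38.9% were called, beside 10.4%, 6.19% and 16.7% of all genes. Leaving out 1 array gave 1 to 3 lower in the first comparison, 0 to 1 higher and 0 to 2 lower in the second, and 1 to 2 higher and 3 to 5 lower in the third. Mtr, methionine synthase, was 4.75-fold lower in GM-BMDC than in M-BMM (-2.25 ± 0.21, limma adjusted p = 0.000578).

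Among enzymes that break down aromatic amino acids, Kynu, Kmo and Haao of the kynurenine route were higher in GM-BMDC than in both macrophage populations, and most of the list was not called. Of 16 genes of tryptophan, tyrosine and phenylalanine breakdown, 5 were higher and 0 lower in GM-BMDC relative to GM-BMM, 1 and 1 in GM-BMM relative to M-BMM, and 5 and 1 in GM-BMDC relative to M-BMM. The shares called were 31.2%, 12.5% and 37.5%, beside 10.4%, 6.19% and 16.7% of all genes, and the medians were 0.16, 0.01 and 0.14. Kynu, kynureninase, measured 11.04 and 10.84 in GM-BMDC, 9.21 and 8.87 in GM-BMM, and 6.13 and 6.00 in M-BMM. It was 3.73-fold higher in GM-BMDC than in GM-BMM (1.90 ± 0.15, limma adjusted p = 0.000501), 7.86-fold higher in GM-BMM than in M-BMM (2.97 ± 0.15, adjusted p = 7.83e-05) and 29.3-fold higher in GM-BMDC than in M-BMM (4.87 ± 0.15, adjusted p = 1.07e-05). Kmo, kynurenine monooxygenase, and Haao, the dioxygenase further down, were 7.71-fold and 4.40-fold higher in GM-BMDC than in GM-BMM (2.95 ± 0.26 and 2.14 ± 0.16, limma adjusted p = 0.0007 and 0.000405). The Kmo arrays were 8.08 and 8.86 in GM-BMDC, 5.74 and 5.31 in GM-BMM, and 5.46 and 5.29 in M-BMM. Kmo is also in the dendritic cell marker list, whose signal is higher in GM-BMDC. The calls of Kynu, Kmo and Haao held without any single array.

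**Figure D3:**
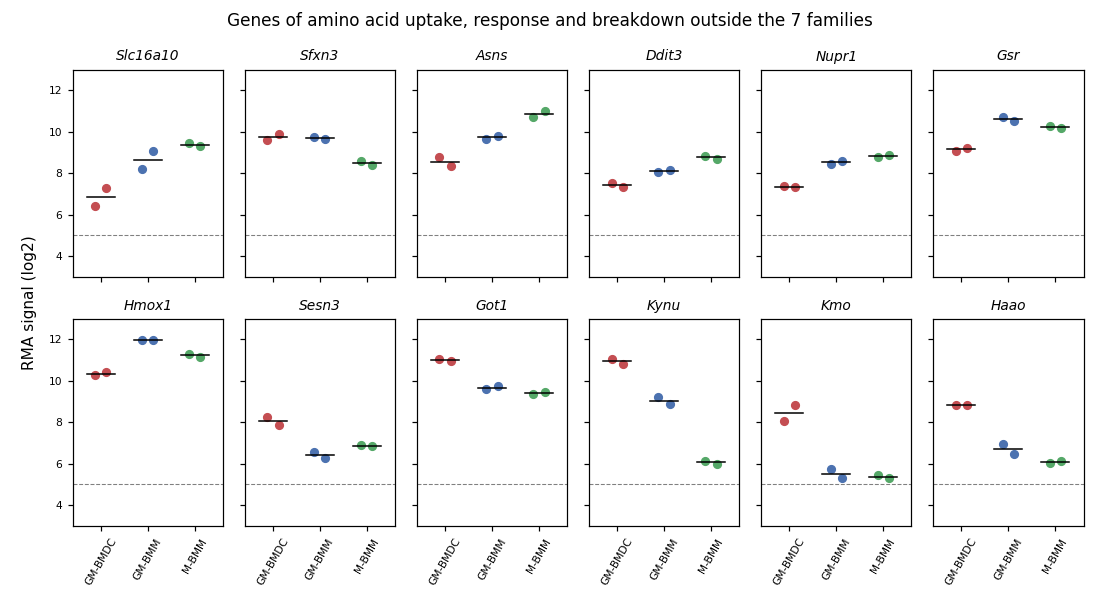
RMA log2 signal in every array for genes of amino acid uptake, response and breakdown outside the 7 families, with populations from left to right as GM-BMDC, GM-BMM and M-BMM, means as bars and the low level of 5.04 dashed. Asns and Ddit3 step upward from GM-BMDC to M-BMM, and Kynu steps downward.

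Calls in the mTORC1 sensing list ran both ways. Of 33 genes of amino acid sensing by mTORC1, 5 were higher and 3 lower in GM-BMDC relative to GM-BMM, 1 and 3 in GM-BMM relative to M-BMM, and 4 and 7 in GM-BMDC relative to M-BMM. These shares were 24.2%, 12.1% and 33.3%, beside 10.4%, 6.19% and 16.7% of all genes, with medians of -0.15, -0.15 and -0.19. With 1 array left out, there were 3 to 4 higher and 1 to 6 lower in GM-BMDC relative to GM-BMM, 0 to 2 and 0 to 2 in GM-BMM relative to M-BMM, and 1 to 4 and 2 to 7 in GM-BMDC relative to M-BMM. Fnip2 was 2.32-fold and 2.92-fold lower in GM-BMDC than in GM-BMM and M-BMM (-1.21 ± 0.16 and -1.55 ± 0.16, limma adjusted p = 0.00404 and 0.000842). Sestrins are inhibitors of mTORC1 signalling. Sesn3 measured 8.24 and 7.89 in GM-BMDC, 6.57 and 6.30 in GM-BMM, and 6.89 and 6.87 in M-BMM. It stood highest in GM-BMDC, 3.10-fold above GM-BMM (1.63 ± 0.15, limma adjusted p = 0.000954) and 2.27-fold above M-BMM (1.18 ± 0.15, adjusted p = 0.00219). Sesn1 measured 7.74 and 8.32 in GM-BMDC, 8.55 and 8.52 in GM-BMM, and 10.08 and 9.96 in M-BMM. M-BMM stood above the other 4 arrays: Sesn1 was 3.96-fold lower in GM-BMDC than in M-BMM (-1.99 ± 0.19, limma adjusted p = 0.000558) and 2.79-fold lower in GM-BMM than in M-BMM (-1.48 ± 0.19, adjusted p = 0.00452, but 0.0705 and 0.0593 without M-BMM replicate 1 or 2), with -0.51 ± 0.19 between GM-BMDC and GM-BMM (adjusted p = 0.157). Sesn2 was 1.62-fold lower in GM-BMM than in M-BMM (-0.70 ± 0.15, limma adjusted p = 0.0353), a call lost without any one of the 4 arrays of these groups (0.0711 to 0.229).

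In the remaining metabolic lists, calls went in both directions. Of 17 genes of glutamine, glutamate and aspartate metabolism, 2 were higher and 2 lower in GM-BMDC relative to GM-BMM, 0 and 1 in GM-BMM relative to M-BMM, and 2 and 2 in GM-BMDC relative to M-BMM. Got1, the cytosolic aspartate aminotransferase, measured 11.07 and 10.95 in GM-BMDC, 9.60 and 9.73 in GM-BMM, and 9.39 and 9.48 in M-BMM, and was 2.54-fold above GM-BMM in GM-BMDC (1.35 ± 0.12, limma adjusted p = 0.000687). Of 16 serine, glycine and one-carbon genes, 1 was higher and 0 lower in GM-BMDC relative to GM-BMM, 1 and 2 in GM-BMM relative to M-BMM, and 2 and 2 in GM-BMDC relative to M-BMM. Of 21 branched-chain breakdown genes, 1 was higher and 2 lower, 1 and 1, and 1 and 3 in the same comparisons, with Aldh6a1, a dehydrogenase of valine breakdown, 2.82-fold lower in GM-BMDC than in M-BMM (-1.50 ± 0.14, limma adjusted p = 0.000542). Shares called in the 3 comparisons were 23.5%, 5.88% and 23.5% for the glutamine list. They were 6.25%, 18.8% and 25.0% for the serine list, and 14.3%, 9.52% and 19.1% for the branched-chain list. Of all genes, 10.4%, 6.19% and 16.7% were called. The glutamine share between GM-BMM and M-BMM and the serine share between GM-BMDC and GM-BMM lay below these. With 1 array left out, the higher and the lower counts of these 3 lists lay within 0 to 4.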

How the data were processed

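Per the submitters' processing notes, the authors made log2 values with Affymetrix Expression Console 1.1 and RMA, a method that corrects background, equalises the arrays' distributions and summarises probe sets. RNA, 300 ng per sample, was hybridised to 1 array each. The table held 35556 probe sets, and array medians lay between 6.18 and 6.28. Arrays have no read depth, so 2 arrays per population limit the precision, with a median standard error of 0.132. The platform annotation named 1 gene for 21789 probe sets, several for 1621 and none for 12146. Each gene was represented by its brightest probe set (mean of 6 arrays), and 2 members had a second one. The annotation's build is not given in the sources used here.

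All 6 arrays were fitted together with limma 3.58.1 in R 4.3.3 (3 residual and 4.34 prior degrees of freedom), two-sided, with Benjamini-Hochberg adjustment over 19938 genes at 0.05. No low-value filter was used. Tables were made with pandas 2.3.3 and NumPy 2.4.6 under Python 3.11.15, and figures with matplotlib 3.10.9. The fit was tested on simulated data first, for GM-BMDC against GM-BMM. It found 0.0% of changes of 1.5-fold, 71.0% of 2-fold and 98.5% of 4-fold, with 0, 13 and 6 false calls. A gene that was not called may therefore still differ.

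The members, lists and alternatives were chosen with earlier results of these data known. Members called in any comparison are named, as are up to 3 called genes per pathway list and comparison. The latter are not always those with the largest difference. Of the members called in none, the 10 with the highest mean are named, and others by role group. Replicate numbers in the labels were tried as a block, leaving out each array in turn was another alternative, and arrays with 2 per group cannot be tested for outliers. Motifs were chosen after the values were seen.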

Additional observations from a re-analysis of the deposited data

How the results depend on the processing

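Of the 40 member calls (a gene in a comparison), 16 held under all alternatives and 24 were lost under at least 1, with 0 reversed. Leaving out 1 array gave 10 to 15 member calls in GM-BMDC against GM-BMM, where the full fit gave 16. It gave 4 to 11 in GM-BMM against M-BMM, where the full fit gave 9, and 6 to 15 in GM-BMDC against M-BMM, where the full fit gave 15. The fits without an array assume that a lone array varies like those of the other groups and have fewer residual degrees of freedom. Only the groups compared, trended and robust variance, a filter on low values, quantile normalization again, median centring, other probe set choices, a fold of at least 1.5, the fit without both GM-CSF arrays numbered 1 and the Y-linked covariate each kept the 3 counts within 1.5 times. Fitting only the groups compared gave 1207 calls over all genes in GM-BMDC against GM-BMM, where the full fit gave 2079. The Y-linked covariate, which also lowers the residual degrees of freedom, lost 10 single calls and left 15, 6 and 10. Deviations of same-numbered arrays had correlations of 0.024, 0.0263 and -0.132 over all genes. Such a correlation can miss a pattern shared by few genes, so it does not decide whether the arrays were paired. Eif2s3y was low in the GM-BMDC and GM-BMM arrays numbered 1 (3.94 and 3.66) and high in those numbered 2 (8.80 and 9.10). Xist did not share this pattern, as both GM-BMDC arrays were high. The replicate block gave 14, 9 and 14 calls. With the M-BMM numbers crossed, a fit chosen after seeing the data, it gave 14, 7 and 15.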
